A study of Oryza sativa with 23 samples.

Results

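481-B is a near isogenic line of the upland rice cultivar Vandana that carries the Way Rarem allele of qDTY12.1, a quantitative trait locus on chromosome 12 for grain yield under drought. All 6 arrays whose labels give 481-B as the cultivar, of 23 arrays in the series, were taken. On 3 of them were roots of 481-B under drought, in soil that dried down after starting at 75% of field capacity, and on 3 roots of well-watered 481-B, whose soil stayed at field capacity. Roots were sampled 25 days after sowing, and each array held 1 sample of total RNA labelled with the dye Cy3. The same treatments of Vandana, the recurrent parent, and of wild-type IR64 (IR64-WT), a lowland cultivar whose well-watered soil was kept wetter, at 1.2 times field capacity, were used for comparison. 481-B came out of marker-assisted backcrossing and is 1 line, so that nothing here separates the locus from the rest of its Way Rarem genome. Plants were sown in 5 biological replicates, and roots of 5 plants were taken per genotype and treatment. The remaining arrays held roots of IR64-Tr-E2, a transgenic IR64 line overexpressing OsNAM12.1, under drought and well watered at 1.2 times field capacity. They entered only the normalization and the shared estimate of the spread. Pooling of plants before hybridisation is not stated in the sources used here. The p-values thus measure the spread between arrays, taken over all 23, which may be technical.

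Drying soil raises abscisic acid in roots, and the hormone works through type 2C protein phosphatases and their kinases on bZIP and other transcription factors. Among the best known products of this pathway are dehydrins and other late embryogenesis abundant (LEA) proteins, hydrophilic proteins that accumulate in maturing seeds and in water-stressed tissue, and with them come sugars of the raffinose family, lipid transfer proteins and oil body proteins. Heat shock proteins, which hold other proteins in a folded state, are a second group known from drying plants.

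Signal was read as log2 intensity after quantile normalization, and a change is the mean log2 signal under drought minus that in well-watered roots. A locus was called at a change of over 2-fold and an adjusted p (limma, Benjamini-Hochberg over 52901 loci, 1 probe each) below 0.05. It counted as expressed when its probe was well above background on all 3 arrays of at least 1 of both groups, which held for 27526 loci. Between 51.2% and 59.9% of the spots of a 481-B array were well above background, against 31.6% to 64.2% over the series, and no spot was saturated. Arrays of the drought group correlated with each other at r = 0.89 to 0.96 over the expressed loci, and those of the well-watered group at 0.92 to 0.97. At loci that separate Vandana from IR64-WT by over 3 log2 units, the 3 drought arrays of 481-B lay nearer Vandana at 96.2%, 97.6% and 96.2% of 453 loci, and the 3 well-watered arrays at 89.6%, 87.1% and 89.4% of 451 loci. The array labelled Vandana well watered replicate 2 lay nearer Vandana at 2.22% of those 451 loci, against its label. Vandana values include it unless stated otherwise, and only some are given without it too. Within 481-B, drought replicate 3 and well-watered replicate 2 stood apart from the other arrays of their groups in the same way (r = 0.57 between their deviations), with 1055 expressed loci over 1 log2 unit above the other arrays on both and 1120 over 1 log2 unit below on both. Of the markers of root and leaf that were listed, the leaf gene for the photosystem II 10 kDa polypeptide was the 1 that could be identified, so that the tissue was not checked against root markers. Its signal, at LOC_Os07g05365, was 6.34, 8.45 and 10.47 under drought and 5.14, 6.84 and 5.49 in well-watered roots, highest on the 2 arrays named above within each group. The same 2 arrays were highest within their groups at 2 further genes of chloroplast proteins, chosen after their values were seen. The Calvin cycle protein CP12 (LOC_Os03g19380) had 5.27, 6.0 and 7.02 under drought and 4.36, 5.85 and 4.22 well watered, and an early light-induced protein (LOC_Os07g08150) had 4.60, 8.67 and 9.42 under drought and 3.83, 7.81 and 4.51 well watered. None of these 3 loci was called. In root tissue, fewer cells of a type and less RNA per cell cannot be told apart.

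Drought changed 306 loci of 481-B, 0.578% of those tested. Of these, 197 loci (0.372%) rose and 109 (0.206%) fell, and 193 of the rises and 101 of the falls were at expressed loci, 0.701% and 0.367% of these and 1.07% together. The median change was -0.00 over all loci and -0.05 over the expressed ones. The called rises had a median of 3.28 and reached 9.11, and the called falls had a median of -2.35 and reached -6.72. With p-values adjusted by Bonferroni, the adjustment that the methods of the study state, 58 loci passed (0.11%), 56 of them higher (0.106%) and 2 lower (0.00378%). For 43 of the 197 rises no well-watered array was well above background, and for 21 of the 109 falls no drought array was. Each of the 3 slides held 1 array of either treatment, and the difference had the same sign on all 3 for the 306 loci, which the call itself largely fixes, and for 43.5% of the expressed loci that were not called. The count depended on the arrays: it fell to 131 without drought replicate 2, to 121 without well-watered replicate 1 and to 160 without well-watered replicate 3, and 106 loci (90 higher, 16 lower) were called in all 6 fits that left out 1 array. Without well-watered replicate 2 the split turned, with 138 loci higher and 181 lower. Without both drought replicate 3 and well-watered replicate 2, 168 loci were called (110 higher, 58 lower).

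**Figure D1:**
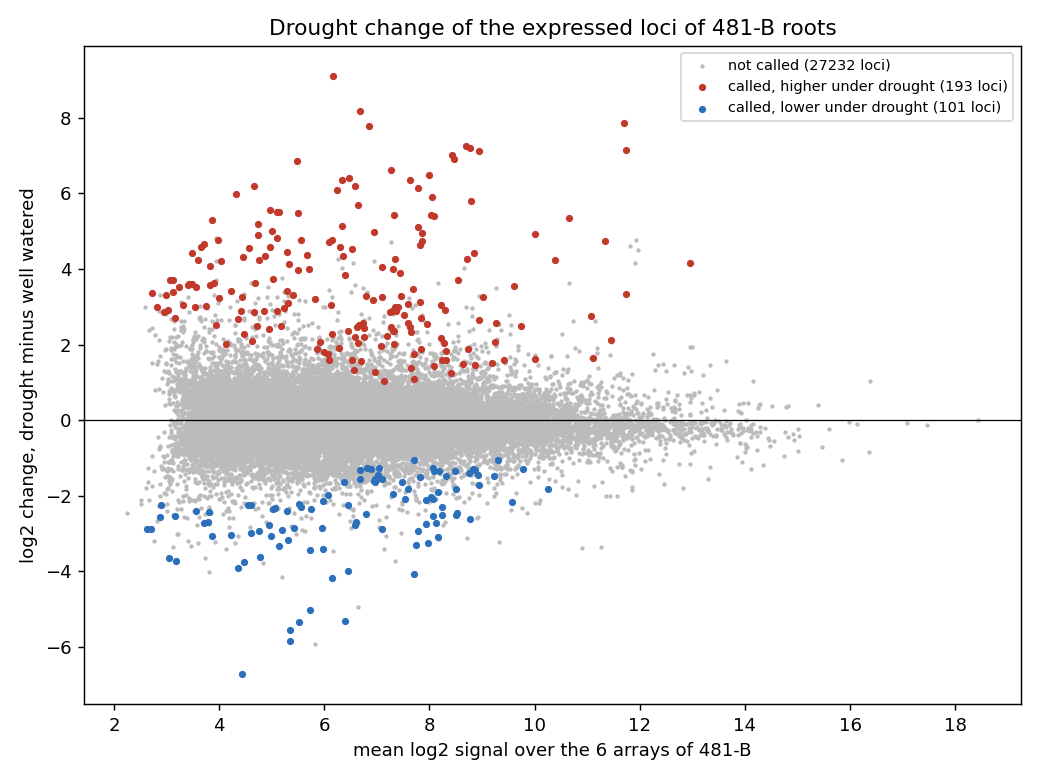
Each point is 1 of the 27526 expressed loci of 481-B roots, with its mean log2 signal over the 6 arrays on the x axis and its log2 change, drought minus well watered, on the y axis. Red points are the 193 called rises and blue points the 101 called falls. The rises reach 9.11 and the falls -6.72, while the cloud of loci that were not called is centred near 0.

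Descriptions were at hand only for the 551 loci of the study's supplementary list, which the study chose on these same arrays for differences between IR64 lines. They covered 116 of the 197 rises and 1 of the 109 falls (21.1% of the 551 loci rose, the share to read the lists against), so that gene families can be described for the rises and hardly for the falls. Within that list, 115 of the 116 described rises stand among 394 loci that it gives as downregulated by the OsNAC transgene, whose median change in 481-B was 1.91, and 0 of 143 loci given as upregulated were called (median 0.34). The direction of any family below is for that reason not independent evidence.

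The dehydrins had the largest median change of the 32 gene lists. All 5 described dehydrin loci were called higher, all 5 also after Bonferroni adjustment. Their median change was 7.14, against -0.05 over the expressed loci and 1.48 over the 551 described loci from which all lists were drawn. The 5 loci lie on chromosome 11. LOC_Os11g26760 had log2 signals of 15.82, 15.94 and 15.11 under drought, against 6.82, 9.42 and 7.05 in well-watered roots, a change of 7.86 ± 0.79 (SE, limma adjusted p = 3.82e-05). LOC_Os11g26780 had 15.61, 15.42 and 14.87 under drought, against 7.47, 9.52 and 7.50 well watered (7.14 ± 0.70, adjusted p = 3.11e-05). On every drought array both loci were over 5 log2 units above every well-watered array, and well-watered replicate 2 was the highest of its group at both. LOC_Os11g26570 had 11.26, 11.01 and 9.97 under drought, against 2.76, 3.12 and 2.99 well watered, where 2 of 3 arrays were above background (7.78 ± 0.73, adjusted p = 2.26e-05). LOC_Os11g26750 had 10.02, 9.93 and 9.08 under drought, against 3.71, 3.78 and 2.96 (6.19 ± 0.74, adjusted p = 2.41e-04). LOC_Os11g26790 had 12.03, 11.66 and 11.37, against 5.48, 6.64 and 5.56 (5.80 ± 0.61, adjusted p = 8.04e-05). In none of the 5 loci did the groups overlap, but the same held for all 294 loci that were called and expressed. All 5 stayed called with any 1 array left out, with medians between 6.79 and 7.82. After normexp background correction all 5 were called, with a median of 4.98. Probe sequences were not used here, so that signal shared between neighbouring family members was not tested, although the methods describe a pilot study that removed probes prone to it.

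Of 15 other loci described as LEA or seed maturation proteins, 14 rose, 9 of them also after Bonferroni adjustment, and their median change was 4.92. The median signal of the 15 loci was 9.22, 9.51 and 8.81 on the drought arrays, against 4.56, 3.88 and 4.71 on the well-watered arrays. LOC_Os03g07180, an embryonic protein of the DC-8 kind, had 12.58, 12.09 and 12.29 under drought, against 3.83, 5.79 and 5.58 well watered (7.25 ± 0.68, adjusted p = 2.39e-05 by limma). LOC_Os01g46600, seed maturation protein PM41, had 12.52, 12.85 and 12.11, against 4.56, 6.27 and 5.30 (7.12 ± 0.62, adjusted p = 1.06e-05). At both the nearest arrays of the groups were more than 5 log2 units apart. The late embryogenesis abundant protein D-34 (LOC_Os06g23350) rose by 6.63 ± 0.54, with 10.99, 10.46 and 10.29 against 3.68, 3.88 and 4.30 (adjusted p = 4.13e-06), and the smallest of the 14 rises was 2.57, at LOC_Os04g49980 (9.22, 8.59 and 8.81 against 6.42, 6.30 and 6.19). LOC_Os06g02040, a group 1 LEA protein, had 7.75, 7.96 and 6.26 under drought, against 1.65, 1.14 and 1.21 in well-watered roots, where no array was well above background. Its rise is given as at least 36.6-fold, which takes for each dim array the lowest signal that was well above background there, if that exceeds the signal of the probe, and the same bound is used throughout. LOC_Os09g10620, seed maturation protein LEA 4, likewise was measured on 3 of 3 drought arrays and 0 of 3 well-watered arrays, and rose at least 37.0-fold. The 15th locus, LOC_Os01g16920, also described as DC-8, had 8.30, 6.82 and 7.45 under drought and 5.20, 6.63 and 5.13 well watered, and was not called (1.87 ± 0.69, adjusted p = 0.382). With 1 array left out the number called lay between 12 and 13 of 15, and 12 loci were called in every such fit. After normexp background correction 11 were called and the median was 2.83.

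**Figure D2:**
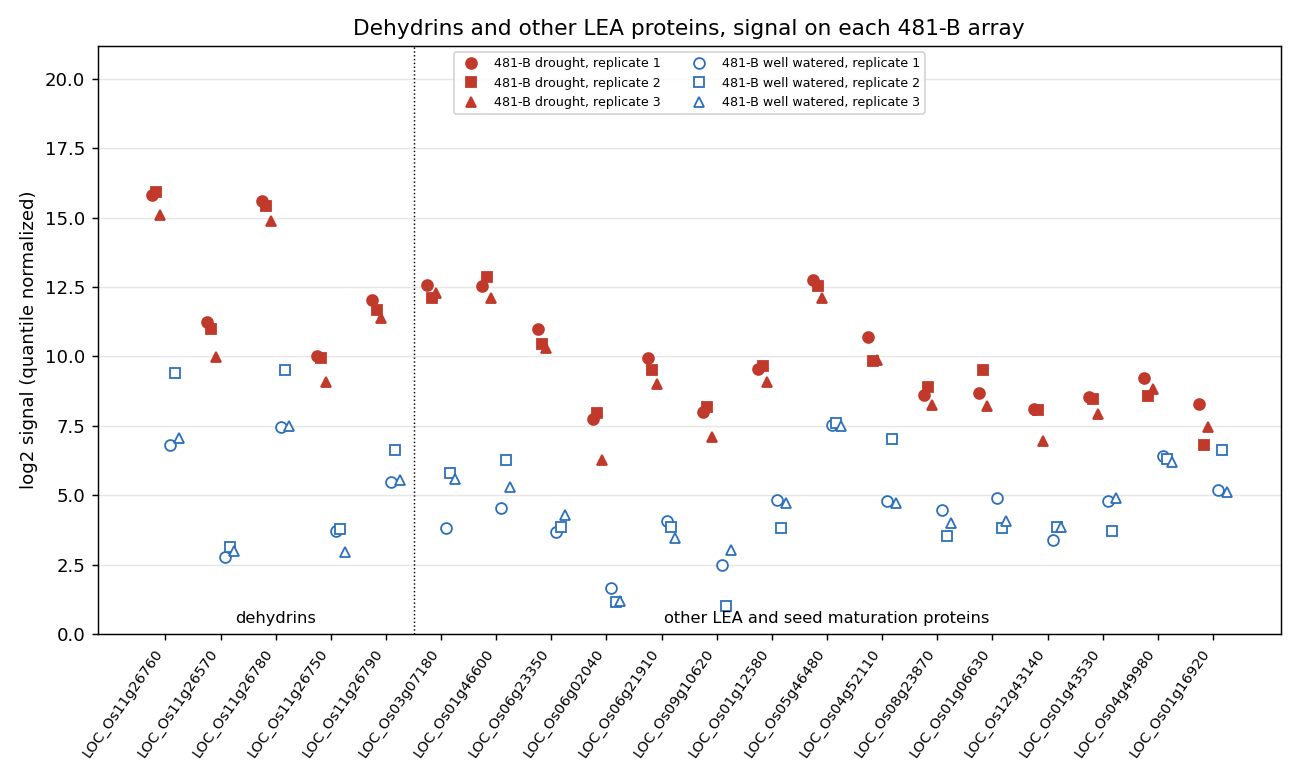
Log2 signal (y axis) of the 5 dehydrins and of the 15 other LEA and seed maturation proteins of 481-B roots on each array. Filled red symbols are the 3 drought arrays and open blue symbols the 3 well-watered arrays, with the symbol shape giving the replicate number. At all 20 loci the 3 drought arrays lie above the 3 well-watered arrays, at LOC_Os01g16920 only by 6.82 against 6.63. The same holds for 346 of the 551 described loci.

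None of 10 small heat shock proteins (hsp20/alpha crystallin family) was called, with adjusted p-values between 0.0529 and 0.522, although 8 of the 10 had all drought arrays above all well-watered arrays and their median change was 4.12. Over all loci, 9.38% had their 3 drought arrays above the 3 well-watered arrays (14.1% of the expressed loci). Among the 551 described loci, from which the lists were drawn, 346 did, so that 8 of 10 does not set this family apart. The median signal of the small heat shock proteins was 9.86, 11.11 and 13.49 on the drought arrays, against 7.37, 9.39 and 8.76 on the well-watered arrays. LOC_Os01g04380 had 12.43, 13.71 and 16.79 under drought, against 7.95, 11.14 and 9.57 well watered (4.76 ± 1.14, limma adjusted p = 0.0735). Drought replicate 3 was above the mean of the other drought arrays by a median of 3.20 over the 10 loci, and well-watered replicate 2 above the mean of the other well-watered arrays by 1.78. The same arrays differed at the dehydrins by -0.77 and 1.13. Without both arrays the median change of the small heat shock proteins was 3.03, and 0 of them were called, while leaving out 1 array let between 0 and 3 pass. The chloroplast genes were highest on the same 2 arrays, with 10.47 on drought replicate 3 and 6.84 on well-watered replicate 2 at LOC_Os07g05365, 9.42 and 7.81 at LOC_Os07g08150, and 7.02 and 5.85 at LOC_Os03g19380. The part that these 2 arrays or the chloroplast genes have in the result was not tested beyond these values. The signals of LOC_Os01g04360, LOC_Os01g04370 and LOC_Os01g04380 ran close together on every array, and whether they are separate measurements was not tested.

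Of 6 other heat shock proteins and chaperones, 1 rose. LOC_Os01g42190, a DnaJ protein, which is a partner of the larger HSP70 chaperones, had 6.36, 6.69 and 6.03 under drought and was not above background on any well-watered array (1.58, 1.75 and 1.42), a rise of at least 18.9-fold (adjusted p = 2.99e-04 by limma). That call did not pass after normexp background correction. A peptidyl-prolyl isomerase, LOC_Os01g62610, had 7.29, 6.93 and 7.03 under drought and 1.20, 5.40 and 3.38 well watered, and was not called (adjusted p = 0.143). Of 3 heat stress transcription factors, which bind the promoters of heat shock genes, 2 rose. LOC_Os01g53220 had 9.72, 9.20 and 8.96 under drought, against 3.19, 4.47 and 1.94 well watered (6.09 ± 0.73, adjusted p = 2.5e-04), and was called in every fit that left out 1 array. LOC_Os01g39020 had 6.97, 7.24 and 6.44, against 3.78, 3.20 and 2.50 (3.72 ± 0.79, adjusted p = 0.0408), and its call was lost after normexp background correction and whichever of the 6 arrays was left out. LOC_Os02g32590, with 5.75, 6.39 and 6.13 against 2.94, 3.38 and 3.51, missed the threshold (adjusted p = 0.0537). For each of these 3 factors the drought arrays were above the well-watered arrays, as at 346 of the 551 described loci.

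**Figure D3:**
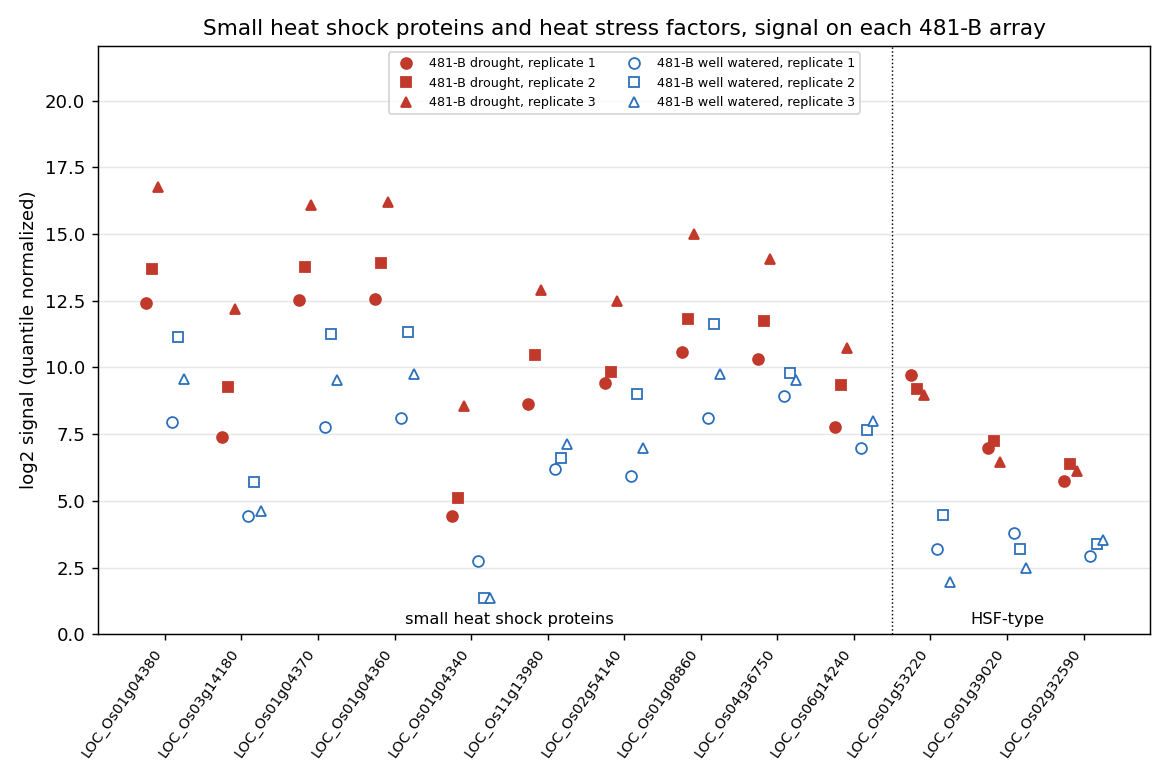
Log2 signal (y axis) of the 10 small heat shock proteins and the 3 heat stress transcription factors (HSF-type) of 481-B roots on each array. Filled red symbols are the 3 drought arrays and open blue symbols the 3 well-watered arrays, and the symbol shape gives the replicate number. Drought replicate 3 is the highest array at each small heat shock protein, as at LOC_Os01g04380 (16.79), while at LOC_Os01g53220 it is the lowest of its group (8.96).

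Among the hormone and transcription lists, calls were made for protein phosphatases, CCCH zinc fingers and MYB factors. Of 2 type 2C protein phosphatases, negative regulators in abscisic acid signalling, LOC_Os05g49730 rose, with 5.58, 5.63 and 7.21 under drought against 1.12, 3.45 and 1.17 well watered (4.23 ± 0.81, limma adjusted p = 0.0199). It was above background on 1 well-watered array, replicate 2, and its call was lost after normexp background correction (1.15, adjusted p = 0.275) and without drought replicate 2, drought replicate 3, well-watered replicate 1 or well-watered replicate 3. Its relative LOC_Os01g19130 changed by 0.75 and was not called (adjusted p = 0.481). Of 2 CCCH zinc finger proteins, LOC_Os01g53650 rose at least 41.7-fold, with 7.89, 8.44 and 7.24 under drought against 1.34, 2.68 and 2.98 well watered and none of these above background (adjusted p = 2.5e-04). Of 6 MYB factors, 4 rose, by 2.34 to 2.90. The furthest, LOC_Os02g49986, had 7.01, 6.18 and 6.47 under drought against 4.23, 4.02 and 2.71 well watered (adjusted p = 0.0357), and LOC_Os02g46030 had 5.28, 5.29 and 5.01 against 3.30, 2.73 and 2.01 (adjusted p = 0.0399). All 6 MYB loci had their drought arrays above their well-watered arrays, as had 346 of the 551 described loci. Between 0 and 2 MYB loci were called with 1 array left out. Both named calls were lost whichever of the 6 arrays was left out, that of LOC_Os02g46030 also after normexp background correction. No MYB locus was called without both drought replicate 3 and well-watered replicate 2.

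No locus among 3 bZIP, 3 AP2/ERF, 4 bHLH, 2 WRKY and 1 NAC factors described was called. The bZIP factor LOC_Os05g48650, of the HBP-1b kind, had 9.64, 9.28 and 9.94 under drought against 7.34, 6.76 and 7.12 well watered (2.55 ± 0.73, adjusted p = 0.165 by limma). The AP2 domain protein LOC_Os04g34970 had 7.21, 7.22 and 6.46 against 4.29, 2.73 and 3.99 (3.29 ± 0.90, adjusted p = 0.133). At both the drought arrays were above the well-watered arrays, as at 346 of the 551 described loci. The expressed loci furthest from 0 in the remaining lists had changes of 1.48 for the bHLH factor LOC_Os04g23550, 0.91 for the NAC factor LOC_Os08g33670 and 0.24 for WRKY97, LOC_Os12g02420. The list medians were 0.67 for bZIP, 0.34 for AP2/ERF, 0.82 for bHLH and 0.21 for WRKY factors. For WRKY97 the groups overlapped, and its change was -0.072 without drought replicate 2 and -0.075 without well-watered replicate 2.

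Rises at loci for sugars took in the raffinose and sucrose pathways. LOC_Os07g10840, described as a glycosyltransferase and binned with raffinose synthases, which add galactose to sucrose, had 14.08, 13.22 and 12.68 under drought against 7.72, 7.53 and 8.70 well watered (5.35 ± 0.58, limma adjusted p = 1.15e-04). LOC_Os12g36870, a glycosyltransferase binned with trehalose metabolism, had 9.34, 8.77 and 8.10 against 5.29, 5.69 and 5.41 (3.27 ± 0.68, adjusted p = 0.0354), and its call was lost after normexp background correction and on leaving out any 1 array other than drought replicate 3. Of the 4 loci of that list, these 2 rose. A sucrose synthase, LOC_Os03g22120, which splits sucrose for use in the cell, had 11.12, 10.75 and 10.67 against 6.31, 6.77 and 6.64 (4.27 ± 0.67, adjusted p = 0.00401) and stayed called in every fit with 1 array left out. A neutral invertase, LOC_Os03g20020, another sucrose-splitting enzyme, changed by 1.59 (adjusted p = 0.479). Of 3 MtN3 loci, the family that includes SWEET sugar carriers, LOC_Os03g22590 rose at least 20.8-fold, with 7.13, 6.61 and 5.78 under drought and no well-watered array above background (adjusted p = 3.79e-05). That call was lost after normexp background correction. LOC_Os02g30910 had 3.28, 3.84 and 9.55 under drought and 1.27, 3.99 and 1.47 well watered, so that its mean change of 3.31 lay on drought replicate 3, and it was not called (adjusted p = 0.417).

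Storage, lipid and metal-binding proteins held further large rises. Both metallothioneins, small cysteine-rich proteins that bind metals, rose after Bonferroni adjustment too. LOC_Os01g05585 had 15.05, 15.71 and 14.33 under drought against 11.02, 10.83 and 10.74 well watered (4.17 ± 0.48, limma adjusted p = 2.03e-04). LOC_Os01g05650 had 13.76, 14.16 and 13.23 against 9.16, 9.26 and 8.49 (4.75 ± 0.58, adjusted p = 2.99e-04). Both were called with any 1 array left out. Among 6 loci of the lipid transfer and seed storage inhibitor family, LTPL3 (LOC_Os08g27210) had 11.29, 10.85 and 10.43 against 4.76, 5.28 and 4.11 (6.14 ± 0.59, adjusted p = 2.75e-05), and LTPL153 (LOC_Os05g47730) rose by 4.74 (adjusted p = 0.0157), a call that was lost without drought replicate 1, drought replicate 2, well-watered replicate 1 or well-watered replicate 3. LTPL13 (LOC_Os12g02330) had 5.51, 10.23 and 11.59 under drought and 4.71, 8.95 and 3.87 well watered, with overlapping groups (adjusted p = 0.727). One of 2 caleosins, proteins of oil bodies, rose at least 10.2-fold (LOC_Os04g43200, 6.13, 6.58 and 5.11 against 2.41, 1.89 and 3.27, adjusted p = 0.00555), again with no well-watered array above background, and it was lost after normexp background correction. Of 6 cupin domain proteins, a family that includes seed storage proteins, only LOC_Os03g48760 was called, with 5.78, 8.01 and 6.08 against 2.62, 1.28 and 3.01 (4.32 ± 0.85, adjusted p = 0.0248). Normexp background correction ended that call, as did leaving out drought replicate 2 or any 1 well-watered array. Its array neighbours LOC_Os03g48750 and LOC_Os03g48780 changed by 3.35 and 4.26 without a call (adjusted p = 0.0641 and 0.0668).

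Of 9 glutathione S-transferases, enzymes that join glutathione to reactive compounds, 3 rose. LOC_Os09g20220 had 10.21, 11.03 and 9.74 under drought against 6.55, 2.89 and 6.70 well watered (4.95 ± 0.84, limma adjusted p = 0.00795), where well-watered replicate 2 was the lowest by over 3 log2 units, and its call was lost without drought replicate 2. LOC_Os01g49720 had 10.04, 9.67 and 8.54 against 5.37, 6.59 and 5.90 (3.46 ± 0.63, adjusted p = 0.0138), lost without drought replicate 1, drought replicate 2, well-watered replicate 1 or well-watered replicate 3. The third, LOC_Os01g27340, rose by 3.28, and with 1 array left out between 0 and 3 loci of the family were called. Cytochrome P450 loci, which form a large family of oxidising enzymes, gave 1 call among 13, a share below the 21.1% of all described loci. That locus, LOC_Os06g37224, is binned as ent-kaurene oxidase of gibberellin synthesis and had 8.84, 9.48 and 7.91 under drought against 6.15, 4.99 and 6.38 well watered (2.90 ± 0.59, adjusted p = 0.0306). The terpene synthase LOC_Os02g36140, binned as ent-kaurene synthase but annotated as a diterpene cyclase, had 9.14, 10.36 and 7.92 against 6.39, 5.22 and 6.56 (3.08 ± 0.61, adjusted p = 0.0243). Both calls were lost on leaving out any 1 array other than drought replicate 3. In both, as in 5 more P450 loci that changed by 1.79 to 1.87 without a call (LOC_Os01g38110, LOC_Os02g36070, LOC_Os02g36110, LOC_Os04g10160 and LOC_Os06g39780), drought replicate 2 was the highest array.

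Among transport and signalling loci, calls were made for a phosphate transporter, receptor-like kinases and a universal stress protein. The phosphate transporter LOC_Os04g10690 rose by 5.15 ± 0.63, with 9.26, 9.13 and 8.37 under drought against 2.34, 4.59 and 4.37 well watered (limma adjusted p = 2.99e-04), and was the 1 call among 6 loci for metal and phosphate transport and storage. None of 4 aquaporins, the water channels of the cell membrane, was called. LOC_Os07g26640 had 13.67, 14.21 and 12.20 under drought and 13.39, 11.35 and 13.37 well watered, a change of 0.66 with overlapping groups, and the change was -0.020 without well-watered replicate 2. Of 21 receptor-like kinases, 3 rose, a share below the 21.1% of all described loci, and all 3 were called with any 1 array left out. LOC_Os01g06890, a leucine-rich repeat protein, had 5.47, 4.62 and 4.71 under drought against 1.13, 1.27 and 1.25 well watered, at least 7.01-fold (adjusted p = 1.17e-04). The wall-associated kinase OsWAK111 (LOC_Os10g10030) had 4.98, 5.78 and 5.10 against 1.07, 1.82 and 2.12, at least 8.95-fold (adjusted p = 9.36e-04). Neither was above background in well-watered roots, and both calls were lost after normexp background correction. One of 3 universal stress proteins rose, LOC_Os01g32780 with 9.30, 9.50 and 9.35 under drought against 5.10, 5.16 and 6.23 well watered (3.89 ± 0.73, adjusted p = 0.018). Its call was lost without drought replicate 1, drought replicate 2, well-watered replicate 1 or well-watered replicate 2. No call was made among 11 ubiquitin ligases and F-box proteins, 7 cell wall enzymes and 4 thaumatins, whose largest changes were 2.27 for OsFBX132 (LOC_Os04g33820), 2.24 for the mannanase OsMan04 (LOC_Os03g61270) among cell wall loci measured on all drought arrays, and 2.76 for LOC_Os12g43440.

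The 2 largest rises of all were at loci described only as expressed proteins. LOC_Os10g39610 had 10.83, 10.47 and 10.86 under drought against 1.99, 1.40 and 1.44 in well-watered roots, none of these above background, and rose at least 368-fold (limma adjusted p = 9.68e-07). LOC_Os01g68290 had 11.35, 10.56 and 10.42 against 2.77, 2.18 and 2.87, at least 288-fold (adjusted p = 3.81e-06), where the bound equals the measured ratio because the probe was above that lowest signal on each dim array. Both probes were above background on every drought array and on no well-watered array. Another such locus, LOC_Os03g51350, had 12.01, 11.62 and 12.15 against 4.71, 5.48 and 4.87 (6.90 ± 0.52, adjusted p = 2.52e-06). Among 46 loci described as retrotransposon proteins, 3 rose and the median change was 1.10. Both lie below the values over all 551 described loci, of which 21.1% rose with a median change of 1.48, so that the family as a whole does not stand out. The neighbours LOC_Os07g23660 and LOC_Os07g23640 gave like values, with 13.03, 12.13 and 11.99 against 5.19, 4.87 and 5.46 for the first (7.21 ± 0.49, adjusted p = 9.68e-07) and 12.53, 11.71 and 11.60 against 4.69, 4.84 and 5.24 for the second (7.02 ± 0.54, adjusted p = 3.06e-06). The last of them, LOC_Os08g34390, was above background on the drought arrays alone.

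Falls under drought were fewer and smaller, and 108 of the 109 had no description. The largest was at LOC_Os10g18760, with 1.03, 1.10 and 1.07 under drought, none above background, against 8.92, 6.25 and 8.20 in well-watered roots, at least 46.7-fold lower (limma adjusted p = 2.04e-05). LOC_Os07g25060 had 1.51, 4.33 and 1.47 under drought, of which replicate 2 alone was above background, against 8.60, 6.46 and 9.77 (-5.83 ± 1.23, adjusted p = 0.0385). The second call was lost after normexp background correction (-2.64, adjusted p = 0.291), with the slide as a block, without both drought replicate 3 and well-watered replicate 2, and without drought replicate 1, drought replicate 3, well-watered replicate 1 or well-watered replicate 3. Beside LOC_Os10g18760, the other fall that passed Bonferroni adjustment was LOC_Os02g37190, with 3.27, 4.88 and 3.04 under drought against 9.51, 8.22 and 9.41 well watered (-5.32 ± 0.67, adjusted p = 4.02e-04). The 8 falls next in size after the first 2, LOC_Os02g37190 among them, had signals of 1.31 to 6.27 under drought and 4.96 to 10.89 well watered. Their changes lay between -5.56 and -3.90, and their limma adjusted p-values between 4.02e-04 and 0.0458. In Vandana the same 8 loci changed by -6.62 to -3.32 and in IR64-WT by -8.30 to -3.08. Over all loci, 8.28% had the 3 drought arrays below the 3 well-watered arrays (12.9% of the expressed loci). At 9 of the 10 loci well-watered replicate 2 was the lowest of its group. The 1 described fall, chosen after its values were seen, was the dirigent protein LOC_Os12g26380, of a family that guides the coupling that forms lignans. It had 2.09, 2.76 and 2.95 under drought, none above background, against 6.87, 4.89 and 7.33 well watered, at least 13.6-fold lower (limma adjusted p = 0.0246), where the bound again equals the measured ratio. The supplementary list places this locus in the region of qDTY12.1. Its call was lost after normexp background correction and without drought replicate 1, drought replicate 2, well-watered replicate 1 or well-watered replicate 3. It changed by -3.76 in 481-B and by -6.21 in Vandana (-6.56 without Vandana well watered replicate 2), and the difference of 2.45 (95% confidence interval 0.23 to 4.66) had an adjusted p of 1.00.

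**Figure D4:**
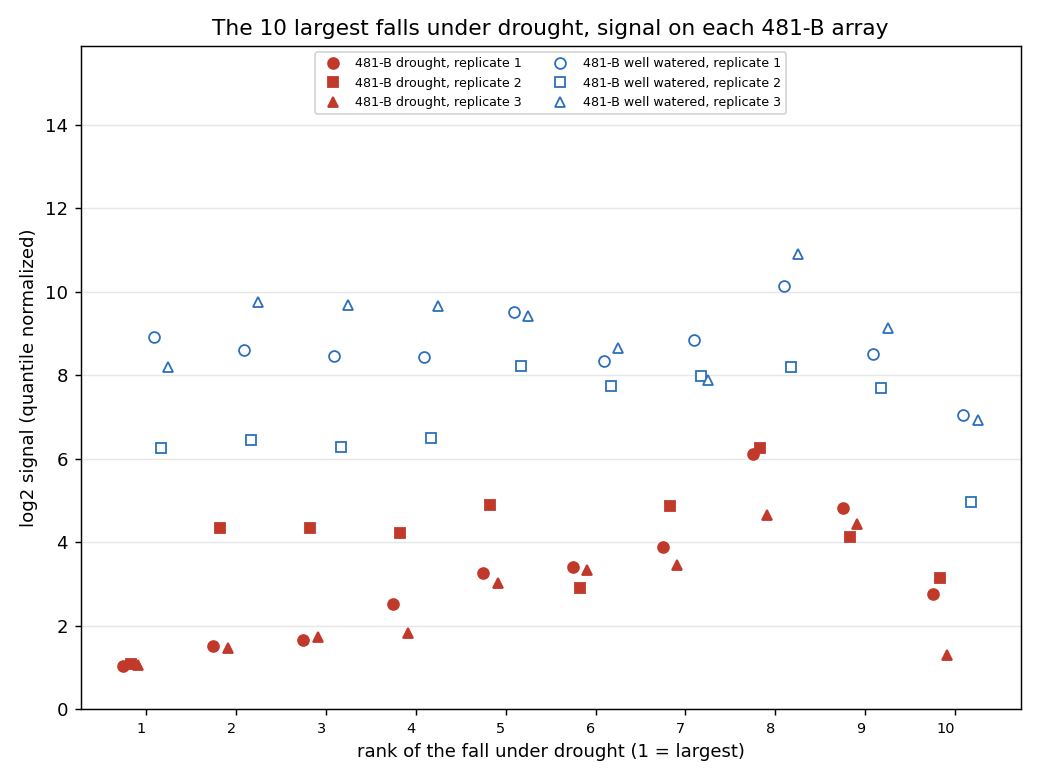
Log2 signal (y axis) of the 10 loci with the largest called falls in 481-B roots, ordered by the size of the fall (x axis). Filled red symbols are the 3 drought arrays and open blue symbols the 3 well-watered arrays, with the symbol shape giving the replicate number. The first locus has drought signals of 1.03 to 1.10, while the second to the fourth each have drought replicate 2 above 4. The groups are apart at all 10 loci, which the rule that chose them required.

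Of 14 loci of qDTY12.1 under which the study lists its candidates, 1 was called in 481-B. Both LOC_Os12g29430 and LOC_Os12g29434 are among the 14, since the sources give either identifier for the same wall-associated kinase candidate. OsGDP12.1 (LOC_Os12g29400), a GRAM domain protein, had 10.78, 10.80 and 11.42 under drought against 8.67, 8.23 and 8.59 well watered (2.50 ± 0.48, limma adjusted p = 0.0202), and its call was lost on leaving out any 1 array other than drought replicate 1. The dirigent locus LOC_Os12g26380, which fell, lies in the region but is not among the 14. Across the background of all loci 0.372% were called higher. LOC_Os12g28770 had 8.19, 6.46 and 8.54 against 10.01, 9.26 and 10.10, with groups apart but no call (-2.06 ± 0.47, adjusted p = 0.0614). It was called in 5 of 17 alternatives, among them normexp background correction (-1.76, adjusted p = 0.0363) and the fit without both drought replicate 3 and well-watered replicate 2 (-2.73, adjusted p = 0.0443). OsNAM12.1 (LOC_Os12g29330), the NAC transcription factor that the study overexpressed in IR64, had 7.51, 6.94 and 6.51 under drought and 7.51, 7.19 and 7.79 well watered. Its change of -0.51 ± 0.51 was not called, and the groups overlapped. OsAFC212.1 (LOC_Os12g27520), OsAH12.1 (LOC_Os12g28270), the CHASE domain locus LOC_Os12g26940 and the MtN3 locus LOC_Os12g29220 were expressed, with changes of -0.29, 0.24, 0.29 and 0.03 and overlapping groups. The auxin response factor LOC_Os12g29520 had 5.11, 4.90 and 6.78 under drought and 4.32, 6.43 and 3.90 well watered, highest on drought replicate 3 and well-watered replicate 2, and was not called. Near background were LOC_Os12g27102 and LOC_Os12g27830, above it on 0 of 6 arrays, LOC_Os12g27254, LOC_Os12g29300 and OsWAK125 (LOC_Os12g29430), on 1 of 6, and LOC_Os12g29434, on 3 of 6.

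Some called loci were neighbours in the order of the array's loci. Of the 197 rises, 21 (10.7%) lay within 5 array loci of another rise, while 3.52% of all loci lay that near to one. Of the 109 falls 6 (5.5%) lay so near to another fall, against 2.02% of all loci. Runs of 3 or more rises were the dehydrins, with 4 calls among the 5 consecutive loci LOC_Os11g26750 to LOC_Os11g26790, and LOC_Os04g31690 to LOC_Os04g31720 on chromosome 4, with 3 calls among 4 loci. Tandem copies can share signal, and no test of the clustering was made. By chromosome, the share of loci that rose was highest on chromosome 1 (39 loci, 0.618%) and lowest on chromosome 12 (7 loci, 0.187%), where qDTY12.1 lies.

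The drought response of 481-B was then set beside those of Vandana and IR64-WT, and the difference of the responses was tested itself. Against Vandana, 1 locus passed (0.00189%), LOC_Os11g21900, which was above background on 0 of 6 arrays of 481-B, and 908 had an unadjusted p below 0.05 (1.72%). Without Vandana well watered replicate 2, 3 loci passed and 1381 had an unadjusted p below 0.05. Against IR64-WT no locus passed (0.0%) by limma, and 1669 had an unadjusted p below 0.05 (3.15%). No other tool was run. The called rises of 481-B had median changes of 3.28 in 481-B, 3.41 in Vandana and 4.28 in IR64-WT, and the called falls of -2.35, -2.19 and -2.25. Without Vandana well watered replicate 2, the Vandana medians were 3.26 and -2.32. Since the loci were picked for their change in 481-B, these medians describe the loci and test nothing. Of the 306 loci, 303 had the same sign in Vandana and 253 were called there too (226 without Vandana well watered replicate 2), and 300 had the same sign in IR64-WT, with 271 called. Further from 0 than in 481-B were 149 of the 306 in Vandana (161 without that array) and 228 in IR64-WT. For 10 of the 306 the difference from Vandana had an unadjusted limma p below 0.05, and for 73 that from IR64-WT. None of these passed after adjustment. Scaling by the 75th percentile instead of quantiles gave a median difference in response over all loci of 0.37 against Vandana and of 0.29 against IR64-WT, so that a small excess in 1 direction cannot be read.

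At single members the interval of the difference was wide. For the dehydrin LOC_Os11g26760 the response of 481-B was 0.18 above that of Vandana (95% confidence interval -2.17 to 2.53) and 0.91 below that of IR64-WT (difference -0.91, interval -3.26 to 1.44). The expressed protein LOC_Os10g39610 changed by 9.11 in 481-B, 8.76 in Vandana and 10.36 in IR64-WT, and LOC_Os01g68290 by 8.17, 7.90 and 10.42. Both were thus the furthest from 0 in IR64-WT, with no call for the difference. For LOC_Os01g68290 the interval of the difference from IR64-WT left out 0 (-2.25, -4.19 to -0.32). For the retrotransposon locus LOC_Os07g23660 the difference was 1.18 against Vandana (interval -0.28 to 2.63) and 1.18 against IR64-WT (interval -0.27 to 2.64). For OsNAM12.1 (LOC_Os12g29330) it was 0.10 against Vandana (interval -1.42 to 1.62). For OsWAK125 (LOC_Os12g29430), which was above background on 1 of 6 arrays of 481-B, the interval against Vandana left out 0 (3.15, 0.91 to 5.40) but the adjusted p was 1.00. No member of the 32 gene lists passed against either genotype, nor against Vandana without its well-watered replicate 2. The dehydrins had medians of 7.14 in 481-B, 7.32 in Vandana (7.77 without that array) and 8.35 in IR64-WT, and the other LEA loci of 4.92, 5.12 (5.19 without it) and 6.85. The small heat shock proteins had medians of 4.12 in 481-B, 2.83 in Vandana (2.89 without it) and 4.32 in IR64-WT.

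**Figure D5:**
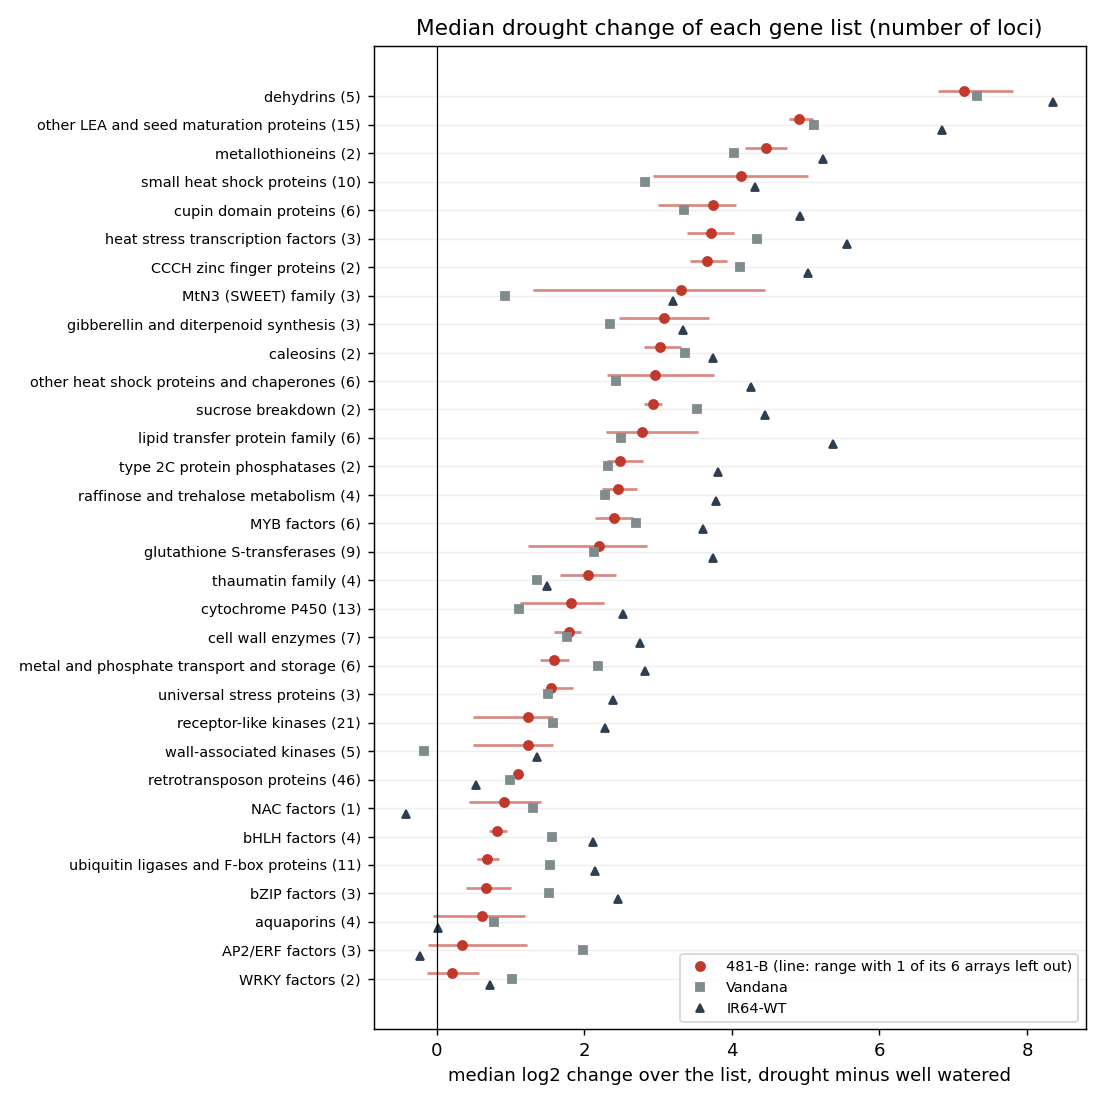
Median log2 change, drought minus well watered (x axis), over the loci of each of the 32 gene lists (y axis, with the number of loci). Red circles are 481-B, with a line for the range when 1 of its 6 arrays is left out, grey squares are Vandana with all its arrays and dark triangles IR64-WT. The dehydrins lie furthest right in each genotype (7.14, 7.32 and 8.35), and the lines of the AP2/ERF, WRKY and aquaporin lists of 481-B cross 0.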

How the data were processed

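Root RNA was hybridised to custom 1-colour Agilent arrays, 1 sample per array. The authors deposited the scanner output of Agilent Feature Extraction (11.0 in the submitters' processing notes), whose processed signal is an intensity with background subtracted and not normalized between arrays. They also deposited a log2 table, quantile normalized and centred on each probe, which was used as an alternative. Of 62976 spots, 61657 were not controls, and 1 to 17 spots marked as outliers on a 481-B array were dropped.

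Log2 processed signals were quantile normalized over all 23 arrays and fitted with limma 3.58.1 (R 4.3.3; lmFit and eBayes) with a mean for each of 8 genotype and treatment groups, so that all groups share 1 estimate of the spread. Of 52901 loci, 52842 had a value on every array, and the others were fitted on the arrays that had one. Tables and figures were made in python 3.11.15 (pandas 2.3.3, numpy 2.4.6, matplotlib 3.10.9). Tests were two-sided. The fit was also run on simulated data with independent noise, which lack the shared deviations of arrays seen here, and no result rests on that run. The supplementary list gave descriptions, functional bins and the region of qDTY12.1. Its groups of loci down- and upregulated by the OsNAC transgene served to describe the called loci, and no locus was called by them.

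The samples, gene lists and loci were chosen with earlier results of these data known. Named are the 10 largest rises and falls among called, expressed loci whose groups were apart, in each list the 2 furthest calls in either direction (without a call, the expressed locus furthest from 0), and the qDTY12.1 candidates. Loci named beyond these were chosen after their values were seen, to show the spread within a list. Of the falls only the first 2 and those that passed Bonferroni adjustment are given by identifier. Set tests and promoter or sequence comparisons were not made, since no sequence table used here could be joined to these loci.

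Alternatives were a 75th percentile shift, normexp background correction (offset 50, with the median spot signal standing in for the mean), a filter on dim probes, slide or replicate number as a block, fewer arrays in the fit, the deposited table, no fold threshold and each 481-B array left out in turn. With 3 arrays a group, precision is set by their number.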

Additional observations from a re-analysis of the deposited data

Results flagged for a closer look

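LOC_Os11g21900, which has no description and was chosen after its values were seen, was the 1 locus whose drought response differed between 481-B and Vandana by the test of the difference (-1.96, 95% confidence interval -2.36 to -1.55, limma adjusted p = 5.39e-04). In 481-B it had 1.14, 1.19 and 1.18 under drought and 1.21, 1.14 and 1.18 well watered, above background on 0 of 6 arrays. In Vandana it had 3.23, 3.08 and 3.16 under drought, with 1 of 3 arrays above background, and 1.20, 1.16 and 1.26 well watered. The call was lost after a 75th percentile shift, after normexp background correction, with the filter on dim probes and with only the 12 arrays of 481-B and Vandana in the fit.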

How the results depend on the processing

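The count of 306 called loci was 197 after normexp background correction, 501 with the filter on dim probes, 155 with only the 6 arrays of 481-B, 141 with only the 12 arrays of 481-B and Vandana, and 168 without both drought replicate 3 and well-watered replicate 2, a choice made after seeing the data. It lay between 121 and 319 with 1 array left out. It moved by less than 1.5 times with a 75th percentile shift (261, of which 74.3% were higher, against 64.4%), a slide block (391), the deposited table (306) and no fold threshold (308). The count at Bonferroni, 58, was 35 after normexp, 8 with only the 6 arrays, 25 with only the 12 and 26 without both arrays, and 31 to 54 with 1 array left out (54 without Vandana well watered replicate 2, 31 to 43 without 1 of 481-B). Against Vandana, the 1 locus became 0 after a 75th percentile shift, after normexp, with the filter and with only 12 arrays, 3 without Vandana well watered replicate 2, 2 without both arrays of 481-B, and 1 to 8 with 1 array left out. Against IR64-WT the count was 0 in all but the fit without drought replicate 1 (range 0 to 11). The deviations of same-numbered arrays, which in 481-B also share a slide, correlated at 0.44, -0.40 and -0.28. Deviations within a group of 3 arrays sum to 0, and drought replicate 3 and well-watered replicate 2 stood apart. These values therefore cannot decide whether arrays of equal number are paired. With the replicate number as a block, 278 loci were called, 258 of them shared with the 306, and 47 at Bonferroni. With that block and only the 6 arrays of 481-B, 0 loci were called by limma (smallest adjusted p 0.151, with 6395 loci at an unadjusted p below 0.05) and 0 at Bonferroni. The block left the counts of 1 and 0 for the differences in response as they were.

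List medians kept their sign in all but 4 of 544 alternatives, all 4 with 1 array left out, but 33 more moved by over the spread between slides. Of these 33, 20 were after normexp, where the median of all loci described was 0.64 (1.48 before), that of the other LEA proteins 2.83 (4.92), that of the heat stress factors 1.45 (3.72) and that of the receptor-like kinases 0.24 (1.24). Of the 46 named calls, 14 were lost after normexp, 7 with a slide block, 6 with the replicate number as a block, 19 with only the 6 arrays of 481-B, 46 with those and the block, 17 with only the 12 arrays, 13 without both arrays and 9 to 18 with 1 array left out. So left out, the AP2/ERF median lay between -0.11 (without well-watered replicate 1) and 1.23, the WRKY median between -0.13 (without drought replicate 2; -0.09 without well-watered replicate 2) and 0.58, and the aquaporin median between -0.042 (without well-watered replicate 2) and 1.19. Of the named loci, 208 alternatives lost a call, 11 gained one, and 10 turned the sign of a change near 0. LOC_Os07g26640 ranged from -0.020 (without well-watered replicate 2) to 1.23, and LOC_Os12g02420 from -0.075 (without well-watered replicate 2; -0.072 without drought replicate 2) to 0.54. LOC_Os12g27830 was -0.023 with a 75th percentile shift and ranged from -0.029 (without drought replicate 2; -0.025 without well-watered replicate 1) to 0.060. LOC_Os12g29220 was -0.018 with that shift, ranged from -0.12 (without well-watered replicate 2; -0.029 without drought replicate 3) to 0.17, and was -0.18 without both arrays. The cause was not tested. The probe of lowest signal per locus could not be used as an alternative, since each locus had 1 probe. Dim probes have only a bound, which limits changes at loci not above background in 1 group.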
